A study of Bos taurus with 15 samples.

Results

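The proteasome is the barrel-shaped protease that degrades ubiquitin-tagged proteins, and its subunits are encoded by the PSMA, PSMB, PSMC, PSMD and PSME genes. Their transcripts were measured in the thymus of 15 slaughtered cows of the Holstein breed. The bovine array names 21 of these genes directly, on 22 probes, out of 21475 bovine probes in all. Another 21 proteasome genes, on 24 probes, are listed on the array under a locus or clone name, and were found through the transcript accession, gene number or description printed beside the probe. The first 21 genes are called members here and the other 21 further subunits. Each gene was represented by its brightest probe. One group of 7 cows was untreated. The other group of 8 cows received prednisolone, a synthetic glucocorticoid, at 30 mg per head daily by mouth for 35 days. Each cow had 1 one-colour array. The age of the cows is not given in the sources used here. The protocol text that names the drug is attached to the control samples too, so groups were taken from the treatment label alone.

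A proteasome consists of a core particle and of caps that bind its ends. The core has outer rings of alpha subunits (PSMA), which gate the entrance, and inner rings of beta subunits (PSMB), some of which carry the catalytic sites. In the standard core these are PSMB5, with chymotrypsin-like activity, PSMB6, with caspase-like activity, and PSMB7, with trypsin-like activity. Cells of the immune system, and other cells exposed to interferon gamma, build in PSMB8, PSMB9 and PSMB10 instead, which take the places of PSMB5, PSMB6 and PSMB7 respectively and give the immunoproteasome, a source of peptides for MHC class I molecules. The regulatory cap holds a ring of ATPases (PSMC), which unfold substrates, and non-ATPase subunits (PSMD), which bind and remove ubiquitin. PA28 (PSME1 and PSME2), PA28 gamma (PSME3) and PA200 (PSME4) are alternative caps. The thymus is mostly developing T cells with epithelial, myeloid and other cells between them. In bulk tissue, fewer cells of a type and less RNA per cell cannot be told apart.

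Values are log2 signals set to 0 at the 75th percentile of an array's bovine spots, so that a difference of 1 is a 2-fold difference. The share of spots well above background was 67.1% to 77.7% per array. Precision is limited by how many arrays there are. Of the 42 proteasome genes, 40 were kept, and each of these was well above background on all 7 control and all 8 prednisolone arrays with no saturated spot. The other 2 genes were too dim for a comparison. PSMB1, a non-catalytic beta subunit and a member, passed the background test on 2 of 7 arrays of controls and on 3 of 8 of treated animals. PSMA8, a further subunit and the alpha subunit best known from testis, passed it on 0 of 7 and 3 of 8. Arrays came on 4 slides, over which the groups were spread unevenly. There were 3 controls and 1 treated animal on slide 1, 1 control and 3 treated animals on slide 2, 3 controls and 1 treated animal on slide 3, and 3 treated animals (2, 4 and 7) with no control on slide 4. Slide 4 minus the other treated arrays gave a median of 0.11 over the 20 kept members (15 higher). Over the 16053 kept probes that could be so compared it was -0.063 (6888 higher). The mean of the kept members was 2.85, 2.86 and 2.77 in prednisolone 2, 4 and 7 of slide 4, and 2.73 to 2.83 in controls. It was lower in prednisolone 3, 5 and 8 of slide 2, at 2.76, 2.70 and 2.61. Prednisolone 6 of slide 1 had 2.79 and prednisolone 1 of slide 3 had 2.82. Results are therefore also given within slides 1, 2 and 3, with slide blocked, and after leaving out slide 4. Slides 1 and 3 each hold a single treated animal and slide 2 a single control.

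Proteasome transcripts in the thymus of treated cows lay close to those of controls. No member passed the test (0 of 20 with an adjusted p under 0.05 by limma, where 0% of all kept probes did, with 1138 probes at an unadjusted p under 0.05). The differences between treated and control means ran from -0.12 to 0.19, 8 members being higher and 12 lower, with a median of -0.029. Over all kept probes the median was -0.00044. The further subunits gave the same picture, with differences from -0.18 to 0.15, 8 of 20 higher, a median of -0.019 and 0 passing. The smallest adjusted p was 0.700 among members and 0.704 among further subunits, by limma. The direction of the members depended on the background correction: with normexp 16 of 20 members (80%) were higher with a median of 0.064, while the median of all probes was then -0.21 and 30.6% of all probes were higher.

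At an unadjusted p under 0.05 there was 1 member of 20, PSMB10, beside 7.08% of all kept probes (3.98% higher and 3.1% lower). No member had groups that did not overlap, which held for 0.118% of all kept probes. In the fit without slide, the lowest lower bound of the members' 95% intervals was -0.31, for PSMB8. The highest upper bound was 0.38, for PSMD6 and for PSMB10. These intervals are not adjusted for the number of genes, and they take no account of slide or of the choice of processing. With slide as a block PSMD6 was 0.20 ± 0.13 (SE) and PSMA2 was -0.13 ± 0.10, so changes beyond those bounds are not excluded. With normexp PSMB10 was 0.37.

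**Figure D1:**
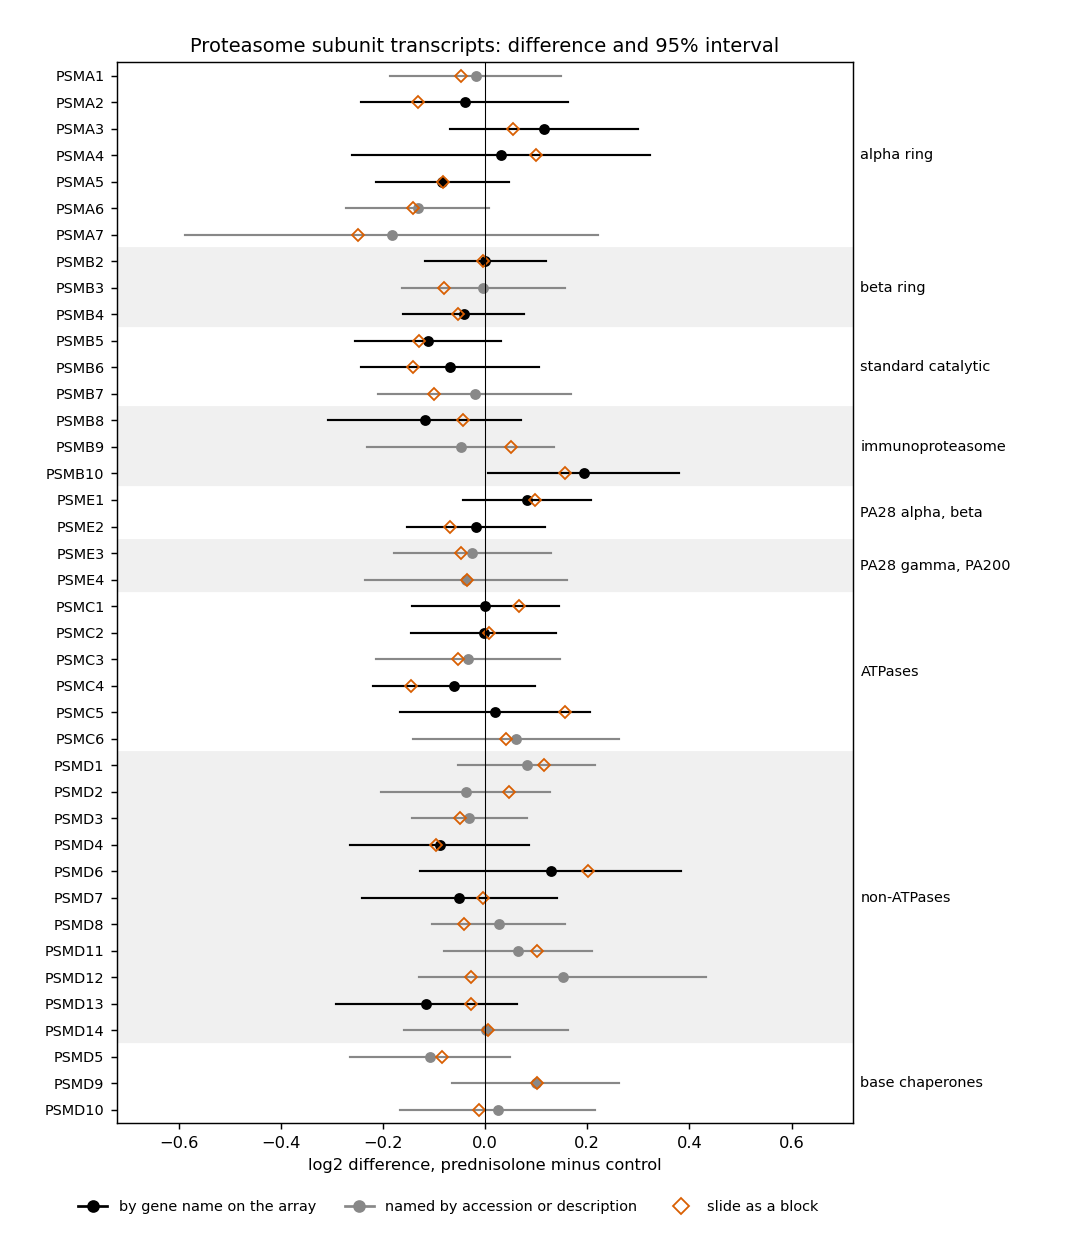
Log2 difference, prednisolone minus control, for the 40 kept proteasome genes grouped by role (points), with 95% intervals from limma for 7 controls and 8 prednisolone animals (lines). Black marks members, grey marks further subunits, and open diamonds give the difference with slide as a block. The interval of PSMB10, from 0.0062 to 0.38, is the one that does not cross 0, and PSMA7 has the widest.

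The standard catalytic subunits were each slightly lower on average in treated animals, with overlapping groups and no pass. PSMB5 lay between 1.72 and 2.03 in controls (median 1.85) and between 1.50 and 1.87 in treated animals (median 1.77). Prednisolone 3, 6 and 8 lay below every control, prednisolone 8 of slide 2 by the most, and the other 5 inside the control range. Its difference was -0.11 ± 0.067 (SE, limma adjusted p = 0.759), and within slides 1, 2 and 3 it was -0.093, -0.13 and -0.16. PSMB6 ranged from 2.79 to 3.15 in controls (median 2.94) and from 2.68 to 3.18 in treated animals (median 2.82). Its difference was -0.068 ± 0.082 (adjusted p = 0.901), and -0.15, -0.20 and -0.078 within slides. PSMB7, found through its accession, ranged from 4.62 to 4.89 in controls (median 4.72) and from 4.38 to 5.00 in treated animals (median 4.68). The treated animals of slide 4 held the 3 highest treated values of PSMB7, and prednisolone 8 the lowest of all 15. Its difference was -0.021 ± 0.089 (adjusted p = 0.979), and -0.091, -0.15 and -0.060 within slides.

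Taken as the mean of PSMB5, PSMB6 and PSMB7 in each animal, the standard set was 3.17 ± 0.054 in controls (SD, n = 7) and 3.11 ± 0.15 in treated animals (SD, n = 8). The difference was -0.067, which is smaller than the pooled SD within groups of 0.12. It was -0.11, -0.16 and -0.10 within slides 1, 2 and 3, -0.12 when slide was blocked and -0.16 without slide 4, whose 3 animals averaged 3.26 against 3.02 in the other treated animals. Without slide 4, PSMB5 was -0.17, at an unadjusted p under 0.05 (limma adjusted p = 0.533). The median of the 3 genes turned from -0.068 to 0.030 with normexp.

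The immunoproteasome subunits did not move together. PSMB8 lay between 3.28 and 3.70 in controls (median 3.37) and between 3.10 and 3.55 in treated animals (median 3.30). Its difference was -0.12 ± 0.089 (limma adjusted p = 0.816), and -0.019, 0.0049 and -0.12 within slides. PSMB9, found through its accession, ranged from 3.79 to 4.05 in controls (median 3.97) and from 3.62 to 4.12 in treated animals (median 3.94). Treated animals thus lay on both sides of the controls: prednisolone 2 and 7 of slide 4 and prednisolone 8 were below all 7 controls, and prednisolone 3 and 4 above them. Its difference was -0.048 ± 0.086 (adjusted p = 0.941), and 0.038, 0.14 and -0.025 within slides.

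PSMB10 was the immunoproteasome subunit on the higher side. It ranged from 3.61 to 4.03 in controls (median 3.81) and from 3.74 to 4.28 in treated animals (median 3.96). Of 8 treated animals 7 lay above the control median, and 2, both on slide 4, above the highest control. The group means were 3.79 ± 0.14 (SD, n = 7) and 3.98 ± 0.17 (SD, n = 8), a difference of 0.19 ± 0.088 (SE, limma adjusted p = 0.700). Within slides 1, 2 and 3 the difference was 0.085, 0.17 and 0.22. With slide as a block it was 0.16 ± 0.10 (limma adjusted p = 0.674) and no longer at an unadjusted p under 0.05. Without slide 4, which holds both animals above the highest control, it was 0.11, again not at an unadjusted p under 0.05 (limma adjusted p = 0.738). Over the 27 alternatives that gave a p the unadjusted value ran from 0.0111 to 0.223, under 0.05 in 11 of them, and the adjusted value from 0.238 to 0.949.

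The mean of PSMB8, PSMB9 and PSMB10 in each animal was 3.72 ± 0.11 in controls (SD, n = 7) and 3.73 ± 0.14 in treated animals (SD, n = 8), a difference of 0.0089. It was 0.035, 0.10 and 0.025 within slides and 0.055 with slide as a block. The median of the 3 gene differences was -0.048, and it had no stable sign: it was 0.052 with slide as a fixed block, 0.0071 with a random block, 0.022 with arrayWeights, 0.070 with normexp and 0.0035 without slide 4.

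**Figure D2:**
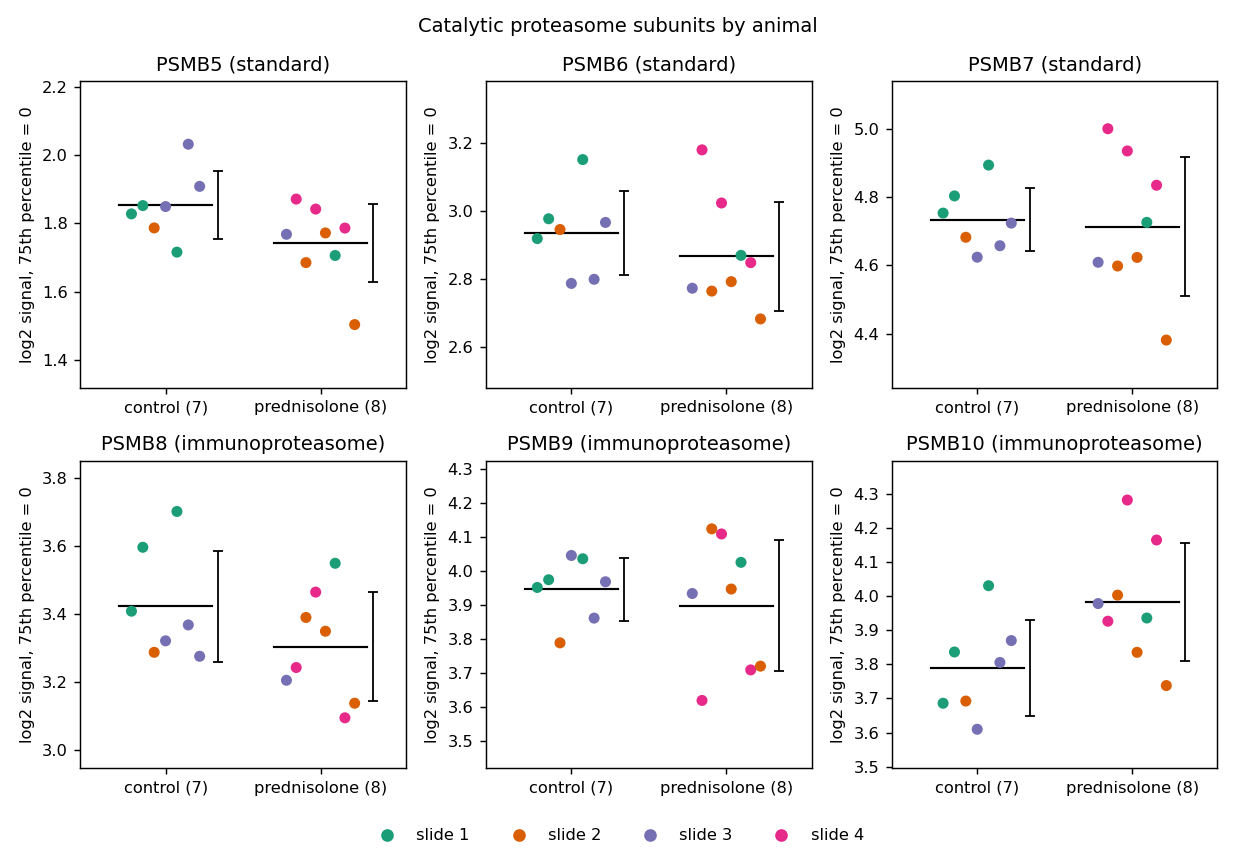
Log2 signal of the 3 standard (upper row) and 3 immunoproteasome (lower row) catalytic subunits in each of 7 control and 8 prednisolone animals, coloured by slide; lines are group means and bars 1 SD. Every panel spans 0.9 on the log2 scale, and the groups overlap in all 6; PSMB10 is the panel where 7 of 8 treated animals lie above the control median of 3.81.

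Since the immunoproteasome subunits replace the standard ones, each was also set against the subunit it replaces within the same array, which removes the scaling of the array. The level of such a difference depends on the probes, and its change between groups is what can be compared. For PSMB10 minus PSMB7 the controls ranged from -1.07 to -0.85 (median -0.97) and the treated animals from -1.07 to -0.60 (median -0.66). Of 8 treated animals 7 were above every control, and prednisolone 2 on slide 4 lay level with the lowest control. The means were -0.94 ± 0.087 (SD, n = 7) and -0.73 ± 0.16 (SD, n = 8), a difference of 0.21, larger than the pooled SD within groups of 0.13. It was 0.18, 0.31 and 0.28 within slides 1, 2 and 3, 0.26 when slide was blocked and 0.25 without slide 4, when 5 of 5 treated animals were above every control. No p is given for it, because it was one of several ways of combining genes chosen with results of these data known.

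The other pairs showed no such shift over all animals. PSMB8 minus PSMB5 averaged 1.57 ± 0.23 in controls (SD, n = 7) and 1.56 ± 0.18 in treated animals (SD, n = 8), a difference of -0.0067. It was 0.073, 0.14 and 0.046 within slides and 0.086 with slide as a block. PSMB9 minus PSMB6 averaged 1.01 ± 0.13 (SD, n = 7) and 1.03 ± 0.28 (SD, n = 8), a difference of 0.020. That was 0.18, 0.34 and 0.053 within slides and 0.19 with slide as a block, and prednisolone 2 stood lowest at 0.44. Both differences are smaller than the pooled SD within groups, 0.20 and 0.22.

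With all 6 genes combined, the immunoproteasome mean minus the standard mean ranged from 0.45 to 0.67 in controls (median 0.52) and from 0.25 to 0.82 in treated animals (median 0.67). Of 8 treated animals 4 were above every control, and 1, prednisolone 2, was below. The means were 0.55 ± 0.071 (SD, n = 7) and 0.62 ± 0.18 (SD, n = 8), and their difference of 0.076 was smaller than the pooled SD within groups of 0.14. The difference was 0.14, 0.26 and 0.13 within slides 1, 2 and 3, 0.18 when slide was blocked and 0.16 without slide 4. The 3 treated animals of slide 4 averaged 0.48 and the other 5 averaged 0.71. Those 3 were unlike each other, with prednisolone 2 at 0.25, prednisolone 7 at 0.50 and prednisolone 4 at 0.68. Without prednisolone 2 alone the difference was 0.13. With the subunits that the array names directly, PSMB5 and PSMB6 against PSMB8 and PSMB10, the difference was 0.13.

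**Figure D3:**
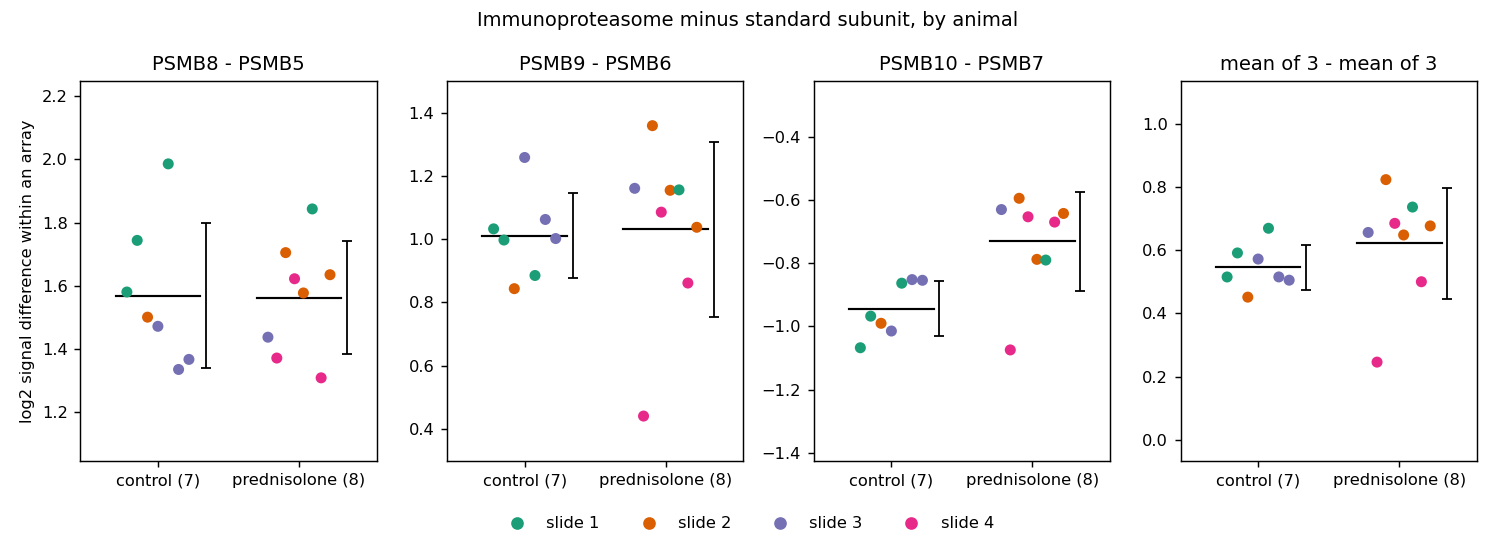
Within-array log2 difference between each immunoproteasome subunit and the standard subunit it replaces, and between the 2 means of 3 genes, for 7 control and 8 prednisolone animals coloured by slide; lines are group means and bars 1 SD, and every panel spans 1.2 on the log2 scale. In PSMB10 minus PSMB7, 7 of 8 treated animals lie above the highest control at -0.85 and prednisolone 2 lies at -1.07.

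The PA28 cap genes, which interferon gamma also induces, differed little. PSME1, PA28 alpha, ranged from 3.03 to 3.28 in controls (median 3.22) and from 3.16 to 3.39 in treated animals (median 3.29). The difference was 0.082 ± 0.059 (limma adjusted p = 0.812). A second probe of PSME1 was much dimmer, with a control mean of -1.63 against 3.21. It gave the opposite sign, -0.10 ± 0.067 (limma adjusted p = 0.783), so the direction of PSME1 depends on the probe. PSME2, PA28 beta, ranged from 3.76 to 3.94 in controls (median 3.86) and from 3.69 to 3.98 in treated animals (median 3.88), with a difference of -0.018 ± 0.063 (adjusted p = 0.972). PSME3, the nuclear PA28 gamma, differed by -0.025 ± 0.073 (limma adjusted p = 0.964). On a dimmer probe it differed by 0.19 ± 0.093 (limma adjusted p = 0.701), so its direction also depends on the probe. PSME4, PA200, differed by -0.038 ± 0.093 (adjusted p = 0.959). Blocking by slide gave 0.097 for PSME1, -0.069 for PSME2, -0.047 for PSME3 and -0.034 for PSME4.

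In the alpha ring, 2 of 7 kept genes were higher and 5 lower with prednisolone, with a median of -0.040 and 0 passing. PSMA3 ranged from 0.93 to 1.35 in controls (median 1.06) and from 0.95 to 1.51 in treated animals (median 1.16), a difference of 0.12 ± 0.086 (limma adjusted p = 0.815). PSMA5 lay between 3.56 and 3.69 in controls (median 3.60) and between 3.29 and 3.65 in treated animals (median 3.58). Its controls were close together (SD 0.045) and its difference of -0.083 ± 0.061 did not pass (adjusted p = 0.815). PSMA4 varied most among controls of all members (SD 0.21), from 1.98 to 2.65 (median 2.30), and from 1.94 to 2.90 in treated animals (median 2.28). The difference of PSMA4, 0.032 ± 0.14, is small beside that spread (adjusted p = 0.979). PSMA2 differed by -0.040 ± 0.095. When slide was blocked PSMA3 was 0.054, PSMA5 -0.082, PSMA4 0.099 and PSMA2 -0.13. Of the further subunits, PSMA6 differed by -0.13 ± 0.066 (limma adjusted p = 0.704), the smallest p among them. PSMA6 was at an unadjusted p under 0.05 with quantile normalization, the deposited values, trended robust eBayes and arrayWeights. That also held without prednisolone 1, without prednisolone 2 and without slide 4, where it was -0.18 (limma adjusted p = 0.483). With slide as a fixed block PSMA6 was -0.14 and not at an unadjusted p under 0.05. PSMA1 differed by -0.018 ± 0.079. Among the non-catalytic beta subunits, PSMB2 differed by 0.00053 ± 0.056, PSMB3 by -0.0036 ± 0.075 and PSMB4 by -0.042 ± 0.056.

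The ATPase ring of the regulatory cap differed little, with values from -0.061 to 0.061 over 6 genes (3 higher, 3 lower, median -0.0011). PSMC1 differed by 0.00042 ± 0.067, PSMC2 by -0.0026 ± 0.066 and PSMC4 by -0.061 ± 0.074 (limma adjusted p = 0.905, the smallest of the role). When slide was blocked PSMC4 was -0.14, and without slide 4 it was -0.16, at an unadjusted p under 0.05 (limma adjusted p = 0.489). PSMC5 ranged from 3.69 to 3.91 in controls (median 3.80) and from 3.38 to 3.98 in treated animals (median 3.87). Its difference was 0.020 ± 0.087 over all animals, and 0.14, 0.15 and 0.17 within slides 1, 2 and 3. The lowest treated value was that of prednisolone 2 on slide 4, and without that animal the difference was 0.084.

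The non-ATPase subunits fell on both sides, 6 of 11 higher and 5 lower with a median of 0.0018. PSMD6 was the member of this role on the higher side. It ranged from 2.02 to 2.21 in controls (median 2.13) and from 1.82 to 2.57 in treated animals (median 2.27). The treated values fell apart, with prednisolone 1, 2, 6 and 7 between 2.51 and 2.57, above every control, and the other 4 between 1.82 and 2.03. The difference was 0.13 ± 0.12 (limma adjusted p = 0.857), and 0.48, -0.19 and 0.31 within slides 1, 2 and 3, so that slide 2 went the other way. PSMD13 ranged from 3.41 to 3.86 in controls (median 3.65) and from 3.27 to 3.68 in treated animals (median 3.59), a difference of -0.11 ± 0.083 (adjusted p = 0.814). Within slides 1, 2 and 3 PSMD13 was -0.17, 0.0091 and 0.081, and it was -0.027 when slide was blocked. PSMD4, a ubiquitin receptor of the cap, ranged from 3.00 to 3.54 in controls (median 3.49) and from 3.21 to 3.46 in treated animals (median 3.35), a difference of -0.089 ± 0.082 (adjusted p = 0.853). One control, number 2, was the lowest animal for PSMD4, and without it the difference was -0.16, at an unadjusted p under 0.05 (limma adjusted p = 0.835). PSMD7 differed by -0.050 ± 0.090. Of the chaperones that assemble the base of the cap, PSMD5 differed by -0.11 ± 0.074, PSMD9 by 0.099 ± 0.077 and PSMD10 by 0.025 ± 0.090, and none passed.

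Proteasome transcripts varied little between animals. The median SD among controls was 0.095 over the 20 members and 0.12 over the further subunits, against 0.22 over all kept probes and 0.14 over the 5272 probes of the members' range of levels. The mean of the 20 members in each animal was 2.78 ± 0.033 in controls (SD, n = 7) and 2.77 ± 0.082 in treated animals (SD, n = 8). Treated animals spread more widely than controls for 16 of 20 members (80%) and 13 of 20 further subunits (65%). That held for 65.9% of all kept probes and 70.4% of the probes of like level. Without slide 4 it held for 10 of 20 members (50%), 7 of 20 further subunits (35%) and 45.5% of all probes. PSMC4 shows it most plainly, with controls from 2.97 to 3.03 (SD 0.028) and treated animals from 2.67 to 3.19 (SD 0.17). PSMD4 went the other way, with an SD of 0.19 in controls and 0.083 in treated animals. Slides held a median of 42.6% of the variance of a member and treatment 7.12%, where the medians over all kept probes were 42.8% and 4.37%. Over the further subunits these medians were 40.0% and 2.55%, and over all 40 kept proteasome genes 42.3% and 4.69%. The shares come from separate fits of slide and of treatment, and they overlap because slides hold the groups unevenly. Slide has more levels than treatment and so takes a larger share by chance alone.

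**Figure D4:**
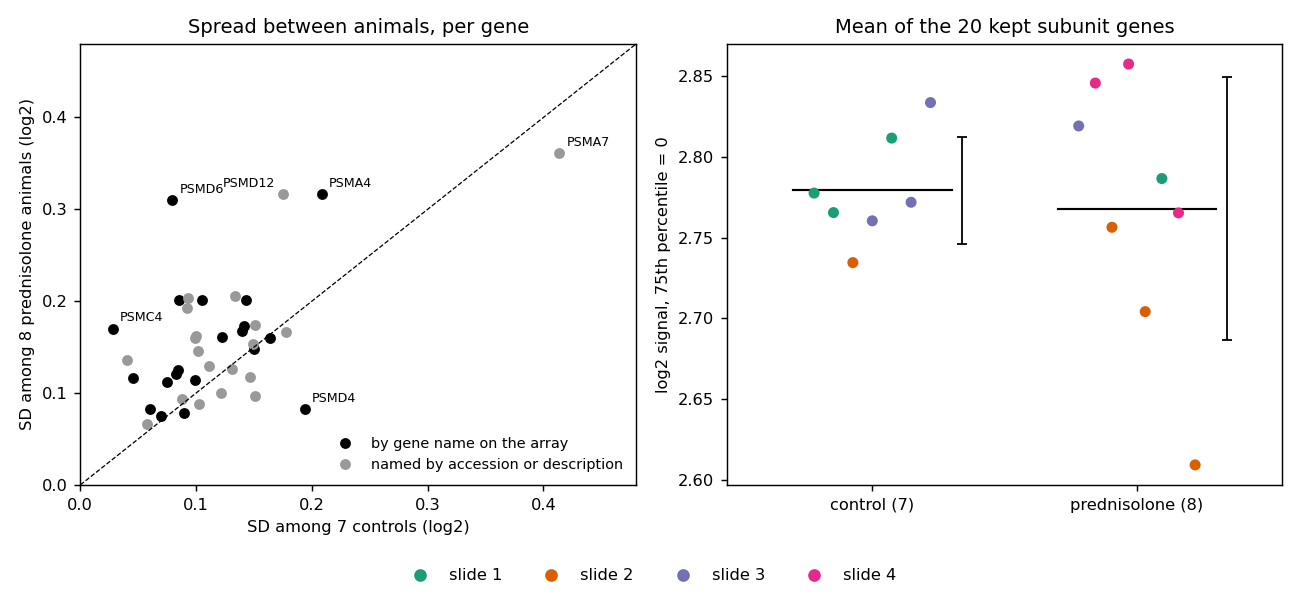
Left, SD among 8 prednisolone animals against SD among 7 controls, in log2 units, with the line of equal SD. Above the line lie 16 of 20 members (black) and 13 of 20 further subunits (grey). Right, the mean log2 signal of the 20 kept members in each animal, coloured by slide, with group means and bars of 1 SD (0.033 in controls, 0.082 in treated animals).

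Subunits of the same kind, replacing pairs and gene neighbours were compared across the 15 animals, in 12 pairs with 100000 permutations each and Benjamini-Hochberg adjustment over the pairs. PSMB6 and PSMB7 went together most closely, with Pearson r = 0.89 (permutation p = 1e-05, the smallest that this number of permutations can give; adjusted p = 0.00012) and Spearman rho = 0.91 (adjusted permutation p = 0.00024). Without the 2 animals farthest from the median r was 0.85, and 0.87 with slide means removed. PSMB8 and PSMB9 also went together, with r = 0.66 (permutation p = 0.00795, adjusted p = 0.0477) and rho = 0.71 (adjusted permutation p = 0.0203). Without the 2 farthest animals r was 0.60, and 0.69 with slide means removed. In the RefSeq gene table of cattle (ARS-UCD2.0) these genes lie in the order PSMB9, TAP1, PSMB8, with no other protein-coding gene between them, TAP1 being a subunit of the peptide transporter of class I presentation. PSMB9 and TAP1, which are direct neighbours, gave r = -0.0026 (permutation p = 0.993). No other pair passed after adjustment. PSMB10 and PSMB7 had r = 0.53 (adjusted permutation p = 0.169), and 0.076 with slide means removed. PSME1 and PSME2, with 1 protein-coding gene between them, had r = 0.41 (adjusted permutation p = 0.312). A slide holds 3 or 4 animals, too few for an r within it, and the points share array scaling and slide.

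Genes around the proteasome were described by lists. No gene of any list passed, beside 0% of all kept probes. In the list of assembly factors and subunits with other names, 3 of 8 kept genes were higher, with a median of -0.052. Of these, POMP, the maturation factor of the core, differed by -0.075 ± 0.066, and SEM1, a small cap subunit, by -0.98 ± 0.80 (well above background on 4 arrays of each group). Among the enzymes and ubiquitin shuttles that bind the proteasome 7 of 11 were higher, with a median of 0.026. The deubiquitinase UCHL5 differed by 0.10 ± 0.064. In the list of ubiquitin and its activation 6 of 10 were higher (median 0.052). Among them were the conjugating enzymes UBE2R2, at 0.28 ± 0.085 (limma adjusted p = 0.568), and UBE2K, at 0.22 ± 0.13. UBE2K was dim, well above background on 4 control and 6 treated arrays. The list of VCP, the segregase that pulls proteins towards the proteasome, had 7 of 11 higher (median 0.0075), with DERL2 at 0.35 ± 0.19 and UBXN4 at 0.13 ± 0.080.

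The list of NFE2L1 and NFE2L2, transcription factors of proteasome genes, had 5 of 11 genes higher (median -0.0023), with NFE2L1 at -0.31 ± 0.18 and its partner MAFK at 0.15 ± 0.093. In the interferon gamma pathway, which switches on the immunoproteasome, 6 of 11 were higher (median 0.0026). The feedback inhibitor SOCS1 differed by -0.16 ± 0.085 and the class II activator CIITA by 0.21 ± 0.16. IFNG itself was well above background on 3 control and 5 treated arrays. Class I presentation had 9 of 11 higher, with a median of 0.097. TAP1 ranged from 0.83 to 2.42 in controls (median 2.32) and from 2.10 to 2.61 in treated animals (median 2.32), a difference of 0.36 ± 0.21 (limma adjusted p = 0.742) with equal medians. ERAP1, the peptide trimming protease, was -0.74 ± 0.29 (limma adjusted p = 0.655). The interferon-stimulated list had 11 of 20 higher (median 0.073), with the antiviral genes MX1 at 0.53 ± 0.25 and PARP9 at 0.17 ± 0.089. These medians are small beside what the processing moves. With slide as a block the class I median was 0.012 and the interferon-stimulated median -0.040, and with normexp the latter was -0.12, the shuttle median -0.0061 and the interferon gamma median -0.0049. Quantile normalization gave -0.0033 for the interferon gamma list and -0.0023 for the VCP list (-0.0086 when slide was blocked), and the NFE2L1 and NFE2L2 list had 0.020 with median centring, -0.057 when slide was blocked and -0.25 (3 of 11 higher) with normexp.

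Markers of the cell types of the tissue were read beside these values, as the number of kept genes higher or lower with prednisolone and as the range of their summed linear level per animal, in units of the array's 75th percentile. Thymocyte markers were present at a summed level of 264 to 316 in controls and 275 to 336 in treated animals (13 of 15 higher, median 0.092), so the labelled tissue's defining cells were detected in each animal. Thymic epithelium had 123 to 156 and 107 to 155 (5 of 12 higher, and 7 of 12 with median centring). B cells had 10.7 to 13.7 and 11.9 to 14.8 (9 of 10 higher, median 0.19), and dendritic cells 31.7 to 39.1 and 32.2 to 46.2 (8 of 10 higher). Macrophage markers had 17.9 to 32.6 and 13.2 to 29.1 (0 of 12 higher, median -0.26), and erythroid markers 40.4 to 113 and 34.6 to 68.9 (0 of 8 higher, median -0.36). Adipocytes had 5.50 to 12.9 and 5.83 to 19.7 (9 of 10 higher, median 0.29), fibroblasts 2.98 to 4.68 and 3.01 to 5.25 (8 of 11 higher) and skeletal muscle 1.29 to 8.29 and 0.68 to 8.54 (7 of 9 higher). The thymocyte, dendritic cell and macrophage medians kept their sign with quantile normalization, median centring, normexp and slide as a block. So did the adipocyte median, but its size ran from 0.029 (6 of 10 higher) with normexp to 0.83 (10 of 10) with slide as a block. With normexp B cells turned to -0.074, fibroblasts to -0.099 and skeletal muscle to -0.28. With slide as a block skeletal muscle was -0.30, thymic epithelium 0.038, and erythroid markers were higher in 4 of 8 with a median of -0.016. No marker gene passed. The filter itself puts each kept marker well above background on 7 or more arrays. The markers CD5, ADIPOQ, LEP, XCR1, PF4, CKM and TTN were on the array but too dim to be kept. The part of the cell makeup in the values of PSMB10 and of the other subunits was not tested.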

How the data were processed

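Spot intensity in the deposited scanner files comes from Feature Extraction (version 9.5.1.1, per the file headers). Its processed signal is background-subtracted and detrended but not scaled between arrays. The authors' deposited value table, of linear intensity (column medians 188.5 to 274.1), follows the processed signal in rank; whether its columns were centred is unknown, and the submitters' processing notes name R 2.11.1. Here processed signals were taken to log2 and each array's 75th percentile was set to 0, outlier spots were dropped and spots of a probe averaged. A probe was kept if well above background on 7 or more of the 15 arrays (16069 probes). The group test was limma (version 3.58.1, R 4.3.3; data.table, version 1.17.8; statmod 1.5.0), with Benjamini-Hochberg adjustment over all kept probes and 0.05 as threshold; the fit was tested on simulated data. Nothing in the labels says whether cows were housed or sampled together, so p-values measure the spread between these samples.

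The members and lists were chosen with earlier results of these data known. Named are the catalytic and PSME genes, the 5 members with the smallest p in each direction, the 3 with the largest control SD, and from each pathway list 2 genes with the smallest p where none passed; others are named to complete a role. A gene that this rule names is left out here, and list counts were kept as they were. Alternatives were quantile normalization, median centring, normexp (offset 50), the deposited values, a looser and a stricter filter, keeping outlier spots, a fixed and a random slide block, trended robust eBayes, arrayWeights, leaving out each animal and averaging all probes of a gene; leaving out slide 4, using array gene names alone, and the pairs of subunits as results were added after seeing the data. Slides were read from the array files.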

Additional observations from a re-analysis of the deposited data

Results flagged for a closer look

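Each group of 7 or 8 animals was searched for a highest or lowest animal set far from the rest, over 62 groups of member genes, named genes and combined values. Chance alone marks about 1 in 20 groups, and 5 were marked. PSMA3 was highest in control 7, at 1.35, above the other 6 controls. PSMD4 was lowest in control 2, at 3.00 against 3.44. PSME1 was lowest in control 6, at 3.03 against 3.19. PSMC5 was lowest in prednisolone 2, at 3.38 against 3.74 for the next treated animal. PSMB10 minus PSMB7 was also lowest in prednisolone 2, at -1.07 against -0.79. Prednisolone 2 lies on slide 4.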

How the results depend on the processing

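None of the alternatives gave a member past the threshold. Over all kept probes 1 passed with quantile normalization, and leaving out 1 animal gave 0 to 3 (3 without prednisolone 1). The members' median turned from -0.029 to 0.064 with normexp, where the median of all probes was -0.21. For the named genes, normexp moved PSMB6 to 0.10, PSMB10 to 0.37 and PSMA5 to 0.066, and the cause was not tested. Averaging all probes moved PSME1 to -0.0097, because its brighter probe gave 0.082 and its dimmer probe -0.10. Leaving out 1 animal gave -0.11 to -0.032 for the standard median, -0.080 to -0.0082 for the immunoproteasome median, -0.049 to -0.0047 for the members' median and 0.047 to 0.13 for immunoproteasome minus standard. The last was above 0 in every alternative run, up to 0.18 with slide as a fixed block, and PSMB10 minus PSMB7 lay between 0.19 (quantile normalization) and 0.34 (normexp). Without 1 animal PSMB8 minus PSMB5 ran from -0.047 to 0.063 and PSMB9 minus PSMB6 from -0.026 to 0.10. Of 476 values of single named genes 29 differed in sign from those reported, none of them past the threshold. No paired analysis was possible because the animals' numbers were given in accession order and no label ties a control to a treated animal. Dim probes limit PSMB1 and PSMA8, and slide 4 has no control.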

Other observations

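PSMA7, an alpha subunit found through its accession, varied more than any other kept proteasome gene, with an SD among controls of 0.41 and among treated animals of 0.36. Its brighter probe lay at 0.035 and 0.17 in controls 4 and 7 and between 0.82 and 1.04 in the other 5 controls, and between 0.011 and 0.93 in treated animals. Another probe carries the accession of PSMA7 but is described on the array as PSMA8, so which transcript it measures is not settled. It lay between -0.20 and 0.92 in controls and between -0.25 and 1.02 in treated animals. The differences between groups were -0.18 ± 0.19 and -0.18 ± 0.23 (SE), neither of which passed. Both probes of PSMD12, a non-ATPase subunit of the cap, gave 0.15 ± 0.13 and 0.097 ± 0.083, and the 3 slide 4 animals differed from the other treated animals by 0.57 on the first and by 0.20 on the second.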
